A study of Homo sapiens with 30 samples.

Results

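SH-EP is an established human neuroblastoma (NB) cell line of mesenchymal type. The question addressed here is whether CYC065, an inhibitor of the kinases CDK9 and CDK2, changed gene expression differently in SH-EP cells carrying T58A MYCN than in SH-EP cells carrying WT MYCN. Both lines stably expressed MYCN from a retroviral transgene under an exogenous promoter, and both were treated for 6 hours with DMSO or with 1 μM CYC065. RNA-Seq of these 4 groups (WT DMSO, WT CYC065, T58A DMSO, and T58A CYC065), with 3 libraries each, makes up 12 of the 30 libraries of the series. The quantity reported is the interaction, that is, the CYC065 response of T58A (CYC065 minus DMSO) minus the CYC065 response of WT, in log2 units. A positive interaction means a larger rise or a smaller fall in T58A, and a negative one a smaller rise or a larger fall. For comparison, the same quantity was taken between the T58A S62A and S62A MYCN lines, which differ at the same residue, were treated in the same way, and share no library with WT and T58A. Each allele is represented by 1 line, and whether that line was a clone or a pool is not given in the sources used here, so an effect of the mutation cannot be told apart from any other difference between the lines. Nothing in the labels says that the 3 libraries of a group came from separate cultures, and p-values therefore measure the spread between libraries, which may be technical.

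MYCN is a transcription factor whose turnover is set by phosphorylation of a short conserved stretch called MYC box I. Phosphorylation of serine 62 primes that of threonine 58 by GSK3, and phosphorylated threonine 58 is read by the ubiquitin ligase FBXW7, which sends the protein to the proteasome. An alanine at position 58 blocks this step, so that T58A MYCN is a long-lived form of the protein. CDK9, with a T-type cyclin, forms P-TEFb, the kinase that releases paused RNA polymerase II into elongation, and its inhibition depletes short-lived transcripts first. The stretch of MYCN that the 2 alleles differ in is given here from the reference genome (chr2:16082349-16082381 of GRCh37, plus strand, coding sequence in exon 2 of 3), as codons 55 to 65, with the codons of threonine 58 and serine 62 in capitals. The base changes that were introduced into the transgenes are not given in the sources used here.

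MYCN codons 55 to 65: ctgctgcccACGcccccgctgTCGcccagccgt

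MYCN (chr2:16080672-16087129 of GRCh37, plus strand, protein coding) was at 13.3, 13.7, and 11.7 FPKM in the WT DMSO libraries, 18.7, 16.2, and 14.4 in WT CYC065, 7.27, 9.84, and 8.44 in T58A DMSO, and 10.6, 9.73, and 13.1 in T58A CYC065. The T58A DMSO libraries were all below the WT DMSO libraries, and the treated libraries of T58A were all below those of WT. The level in DMSO was thus lower in T58A (log2 difference -0.61, adjusted p = 0.010, limma). With CYC065 the transgene rose by 0.52 on the log2 scale in WT and rose by 0.57 in T58A, an interaction of 0.05 ± 0.24 (SE, adjusted p = 0.93). FPKM per gene does not read codon 58, so these values show that both lines carried MYCN transcript and not which allele. MYCN was listed at 0 in the parental SH-EP libraries.

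The 12 libraries had 41% to 45.8% of genes at 0 FPKM, and a 0 in such a table can be a failed estimate. Read totals are unknown, but the low FPKM values gave depths relative to the deepest library of 0.528 to 1 in WT DMSO, 0.496 to 0.640 in T58A DMSO, 0.372 to 0.553 in WT CYC065, and 0.319 to 0.358 in T58A CYC065, so low genes in the treated T58A libraries are the least precise. Of 8 defining mesenchymal markers, 8 were above 1 FPKM in all 12 libraries, whereas 7 of 11 adrenergic markers were under 1 FPKM in all 12, with PHOX2A and HAND1 listed at 0. HAND2 (26.1 to 89.3 FPKM), GATA2 (9.68 to 22.4 FPKM), and GATA3 (1.89 to 8.88 FPKM) were above 1 FPKM in all 12. The defining epithelial, blood, and endothelial markers were all under 1 FPKM in every library. As these are bulk libraries, fewer cells of a kind and less RNA per cell cannot be told apart.

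CYC065 changed the level of most tested genes in both lines. Of 11575 tested genes, 8501 (73.4%) passed the test in WT, 5228 higher and 3273 lower, and 8550 (73.9%) in T58A, 5391 higher and 3159 lower. These directions are relative to the median gene of each library, and the median response over tested genes was 0.23 in WT and 0.25 in T58A against 0.06 and 0.07 as deposited, so a gene whose FPKM fell slightly can have a response near 0. Without centring the splits were 4281 higher and 3957 lower in WT, and 4407 and 3855 in T58A, and with spike-in scaling, which counts per cell, 89 and 10845 in WT, and 145 and 9747 in T58A. The responses differed between the lines for 634 genes (5.48%), of which 344 (2.97%) had a positive interaction and 290 (2.51%) a negative one. The interaction had a median of 0.04 over all tested genes and lay between -0.60 and 0.59 for the central 90%, and its median size among called genes was 0.47.

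Most called genes responded in the same direction in both lines with different sizes. Of the 344 positive genes, 133 (38.7%) rose in both lines and rose more in T58A, 78 fell in both and fell less in T58A, 66 rose in T58A alone by the test, 50 fell in WT alone by the test, and 17 (4.94%) fell in WT and rose in T58A. Of the 290 negative genes, 135 (46.6%) rose in both lines and rose less in T58A, 53 rose in WT alone, 50 fell in both and fell more in T58A, 35 fell in T58A alone, and 17 (5.86%) rose in WT and fell in T58A. In DMSO 2749 genes (23.7%) differed between the lines, 10.1% of tested genes being higher and 13.7% lower in T58A. There, 131 of the positive genes were lower in T58A and 10 higher, and 109 of the negative genes were higher in T58A and 27 lower. The DMSO libraries enter both quantities, so these counts are not separate evidence of a difference in response.

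**Figure D1:**
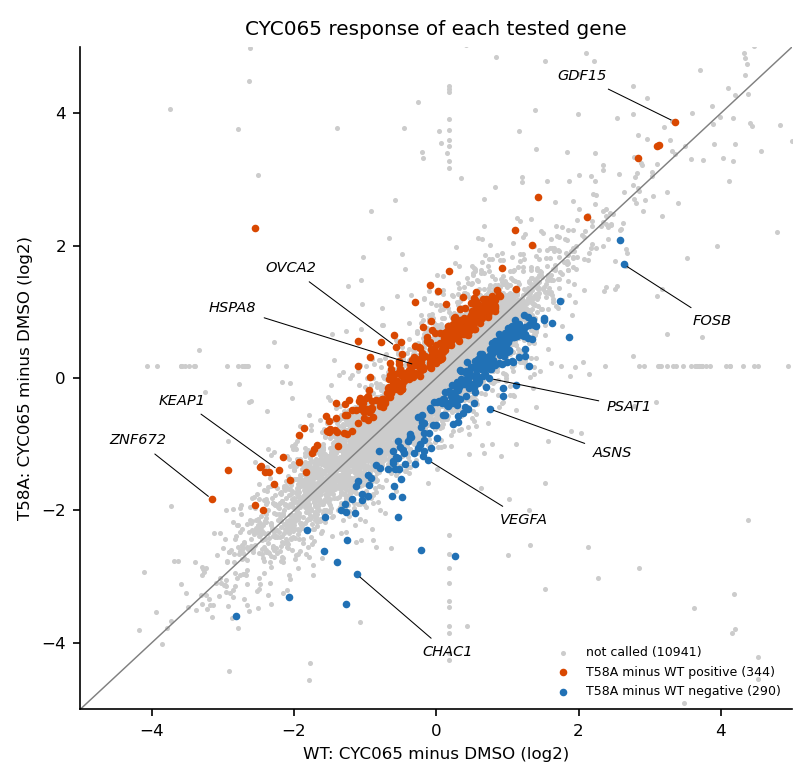
CYC065 response (CYC065 minus DMSO, log2) in WT on the horizontal axis and in T58A on the vertical axis, 1 point per tested gene, with the line of equal response. The 344 genes with a positive interaction lie above the line and the 290 with a negative one below it, and most of them lie close to it (78 genes beyond 5 on either axis, of which 1 was called, are not drawn).

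The count of called genes rested on the scaling and on the estimate of spread. The spike-ins, added by cell number, took a larger share of the treated WT libraries than of the treated T58A libraries, with a median log2 spike-in level of 5.48 to 5.86 against 4.84 to 4.90, while the DMSO libraries overlapped (3.67 to 4.21 in WT and 3.43 to 4.12 in T58A). Scaled to them, the median gene fell by 1.57 in WT and by 1.08 in T58A, the median interaction was 0.50, and 5 genes were called, all positive (CCDC85A, NSRP1, PLA2G16, ZNF524, and ZNF672). All interactions below are therefore relative to the median gene and not per cell. When the 4 groups were fitted alone, without the spread of the other 6 groups, 60 genes were called, of which 52 were among the 634. Leaving out 1 library gave 179 genes without the first WT DMSO library and 1094 without the third. The count was 327 and 316 without the second or the third WT CYC065 library, 292 and 362 without the first or the third T58A DMSO library, 391 and 404 without the second or the third T58A CYC065 library, and 442 to 670 in the other 4 such fits. The first WT DMSO library also stood apart in the relation of its levels to GC content (Spearman rho of 0.193 over genes, against -0.0446 and -0.153 in the other two). Positive genes had a median transcript GC content of 53.4% and a median length of 2880 bases, negative genes 42.5% and 5858 bases, and all tested genes 47.4% and 3774 bases. With each library centred within bins of GC content and length, 548 genes were called, of which 292 were among the 634 in the same direction (113 positive and 179 negative). Under all of these (12 fits leaving out 1 library, the 4-group fit, and the GC and length centring) 38 genes were called, 15 positive, among them HSPA8, OVCA2, PPM1D, PYCRL, RRP1B, and ZNF672, and 23 negative, among them ASNS, CHAC1, PSAT1, SLC7A11, CARS, GARS, VEGFA, and MDM2. ZBTB6, ZNF92, MTHFD2, MRPS26, MRPL20, CLSPN, GRWD1, CDK6, and EFNB1, described further on, lost their call when the first WT DMSO library was left out and kept it in the other 11 such fits. Of 88 called genes that were followed singly, 32 were not called with GC and length centring, namely CCNT1, NELFA, AFF4, HIST1H3H, CPTP, THAP7, FAM131A, COX14, ZMYM5, FARSA, MTHFD2, MRPS12, MRPL20, NDUFS8, NDUFB10, UQCR10, COX5B, ORC1, GINS2, AURKA, DLGAP5, GDF15, SRF, GRWD1, POLR1B, BAG3, HIST1H2BD, CDK6, CDK4, FN1, EFNB1, and NOCT, and LOC100129434 has no value there. In the fits leaving out 1 library, 29 of the 88 were called in at most 6 of 12, namely AFF4, HIST1H3H, CPTP, THAP7, FAM131A, MED7, ZMYM5, PCK2, PSPH, TRIB3, FARSA, MRPL12, MRPS12, NDUFS8, NDUFB10, UQCR10, GINS2, ASPM, CENPE, DLGAP5, GDF15, SRF, IER2, POLR1B, DNAJA2, HIST1H2BD, ZNF649, CDK4, and ACTA2. CCNT1, ORC1, SNAI2, and NEAT1 were called in 7 of the 12, and NELFA, SELO, and ZNF181 in 8. COX5B and LOC100129434 were called in 9, and FOSB, POLA2, AURKA, and FN1 in 10. Other called genes given with values in the text, such as NFKB2, GADD45A, AXL, ADSL, TPM2, ID4, and CDK19, were not among the 88. Their absence from these lists does not mean that they kept their calls.

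**Figure D2:**
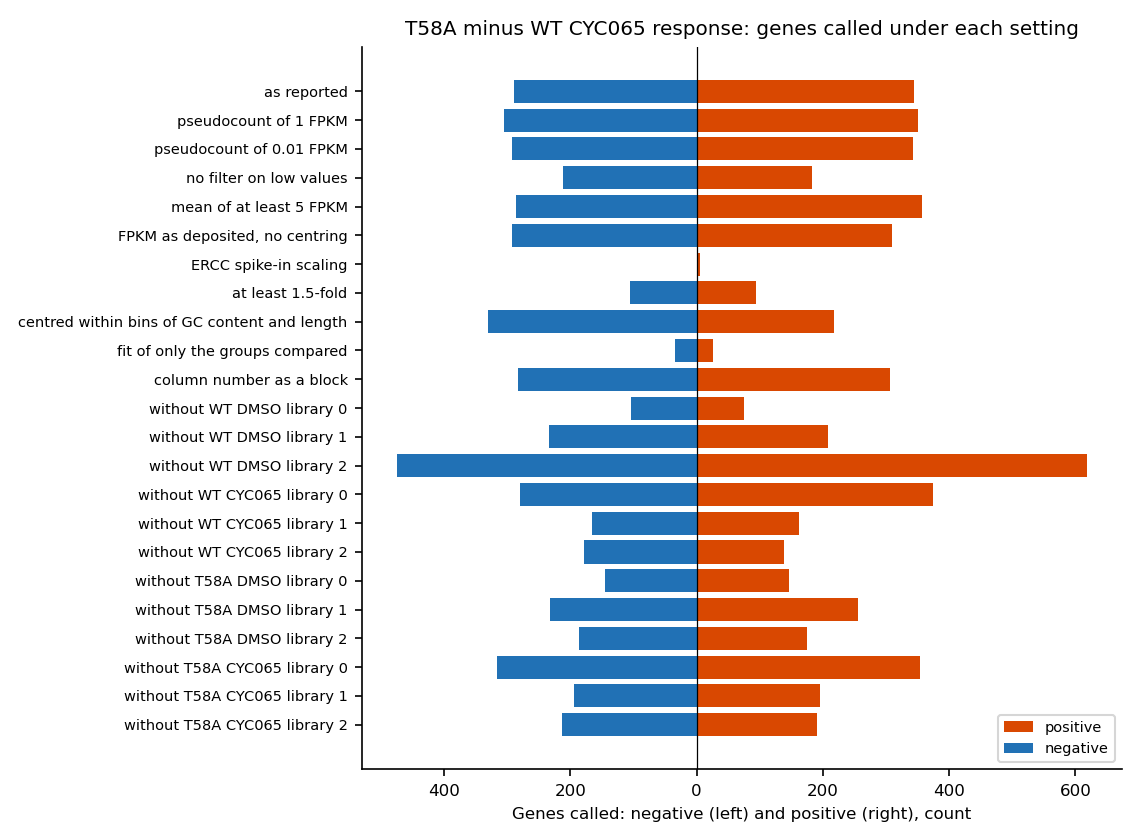
Number of genes called with a positive interaction (right) and a negative one (left) as reported and under each other setting, including the 12 fits that leave out 1 library. The bars run from 5 genes with spike-in scaling to 1094 without 1 WT DMSO library, against 634 as reported.

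The genes with the smallest p-values of the interaction were ASNS, GARS, HSPA8, and PSAT1, and all of these but the chaperone HSPA8 act in amino acid synthesis or tRNA charging. ATF4 is the transcription factor that cells induce when amino acids run short or the endoplasmic reticulum is stressed, and with CEBP partners it binds CEBP-ATF composite elements, 8-letter sequences found in the promoters of its targets. Its targets include asparagine synthetase, the serine synthesis enzymes, the cystine transporter subunit SLC7A11, and most cytosolic aminoacyl-tRNA synthetases. Of 21 tested genes of this response, 8 had a negative interaction and 0 a positive one, where 2.51% of all genes were negative. The list's median was -0.33, beside 0.04 for all tested genes, and 2 of its 21 genes were above 0. The count was 5 without the second WT DMSO, the third WT CYC065, the first T58A DMSO, or the first T58A CYC065 library, 6 or 7 without any 1 of the other 8 libraries, 4 in the 4-group fit, 13 (median -0.52) with GC and length centring, and 0 with spike-in scaling, where the median of the list was 0.12 and that of all genes 0.50. In DMSO, 13 of the 21 were higher in T58A and 0 lower, where 10.1% of all tested genes were higher. On the S62A background the list's median was -0.03, the same as that of all tested genes, with 1 positive and 3 negative members.

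Promoters of members of this group are shown to give the letters around a start site (300 bases each, from upstream of the start site to just past it, RefSeq, GRCh38.p14), with matches to TGATGNAA or its reverse complement TTNCATCA in capitals. The match in ASNS starts 68 bases before the start site, that in CHAC1 209 bases before, and that in CARS (now CARS1) 2 bases before.

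ASNS promoter (chr7:97872359-97872658, minus strand): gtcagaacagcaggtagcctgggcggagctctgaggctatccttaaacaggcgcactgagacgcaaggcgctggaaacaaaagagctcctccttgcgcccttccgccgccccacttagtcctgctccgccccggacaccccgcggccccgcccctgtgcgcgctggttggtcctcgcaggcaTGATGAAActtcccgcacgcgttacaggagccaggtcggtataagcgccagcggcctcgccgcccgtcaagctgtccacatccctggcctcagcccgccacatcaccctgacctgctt
CHAC1 promoter (chr15:40953221-40953520, plus strand): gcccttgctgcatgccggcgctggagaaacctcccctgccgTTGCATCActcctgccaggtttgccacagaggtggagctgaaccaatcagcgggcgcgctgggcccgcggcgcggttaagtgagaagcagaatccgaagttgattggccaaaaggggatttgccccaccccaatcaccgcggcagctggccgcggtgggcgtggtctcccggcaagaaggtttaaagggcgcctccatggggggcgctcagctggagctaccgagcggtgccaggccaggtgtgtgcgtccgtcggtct
CARS promoter (chr11:3057374-3057673, minus strand): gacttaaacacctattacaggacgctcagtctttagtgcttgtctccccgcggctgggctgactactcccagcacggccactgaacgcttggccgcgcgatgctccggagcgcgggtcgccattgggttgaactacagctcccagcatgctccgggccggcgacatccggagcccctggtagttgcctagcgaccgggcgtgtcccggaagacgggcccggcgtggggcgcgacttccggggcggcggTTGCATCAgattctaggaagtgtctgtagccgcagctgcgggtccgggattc

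Both strands were searched. Such a match was present in 4 of 19 promoters of the ATF4 list (21.1%) and in 6 of 16 of the tRNA synthetases (37.5%), against 1270 of 35116 promoters in all (3.62%). The table used held no promoter for PSPH and SLC7A11 of the former or DARS, LARS, VARS, and YARS of the latter. Among the members with a negative interaction and a promoter in the table, 2 of 6 and 4 of 7 promoters held one, and CHAC1, ASNS, CARS, IARS, MARS, and NARS were those genes. Matches were also present in SLC3A2, SLC7A1, AARS, and TARS, which were not called negative. PSAT1, TRIB3, PCK2, XPOT, EPRS, GARS, and WARS were negative without a match. Whether a match goes with the interaction was not tested. A match describes the sequence, and binding was not measured.

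ASNS, asparagine synthetase (chr7:97480989-97501854 of GRCh37, minus strand), was at 28.2, 26.9, and 24.4 FPKM in the WT DMSO libraries, 37.9, 40.7, and 39.7 in WT CYC065, 47.5, 46.1, and 42.5 in T58A DMSO, and 26.1, 31.3, and 29.3 in T58A CYC065. Its 3 treated WT libraries were all above the WT DMSO libraries, and its 3 treated T58A libraries all below the T58A DMSO libraries. ASNS rose by 0.75 on the log2 scale in WT and fell by 0.47 in T58A, which gave an interaction of -1.22 ± 0.093 (SE) with the smallest p of all tested genes (adjusted p = 4.2e-08). In DMSO it was higher in T58A (0.77, adjusted p = 1.1e-08). CHAC1, an enzyme that degrades glutathione (chr15:41245160-41248710, plus strand), was at 3.0, 4.35, and 3.11 FPKM in the WT DMSO libraries, 1.58, 1.31, and 1.17 in WT CYC065, 7.27, 9.06, and 8.12 in T58A DMSO, and 1.02, 0.981, and 0.553 in T58A CYC065. CHAC1 was highest in T58A DMSO and lowest in T58A CYC065, with no overlap with the WT libraries of the same treatment. It fell by 1.12 on the log2 scale in WT and fell by 2.96 in T58A (interaction -1.85 ± 0.30, adjusted p = 0.0022). PSAT1, the aminotransferase of serine synthesis (chr9:80912041-80945009, plus strand), was at 62, 61.5, and 62.3 FPKM in the WT DMSO libraries, 87.8, 95.1, and 93.5 in WT CYC065, 119, 117, and 106 in T58A DMSO, and 99.2, 96.5, and 104 in T58A CYC065. The treated and untreated libraries of WT did not overlap, and the T58A libraries were above the WT libraries in both treatments. PSAT1 rose by 0.75 on the log2 scale in WT and had a response of -0.01 (test not passed) in T58A, an interaction of -0.75 ± 0.085, adjusted p = 2.1e-05. SLC7A11, the cystine carrier of the xCT antiporter, was at 38.1, 46.3, and 46.3 FPKM in the WT DMSO libraries, 52.1, 56.8, and 57.7 in WT CYC065, 50.9, 49.4, and 50.9 in T58A DMSO, and 40.7, 40.9, and 39.7 in T58A CYC065. It rose by 0.53 on the log2 scale in WT and had a response of -0.13 (test not passed) in T58A, so that the order of the lines was opposite in DMSO and CYC065 (interaction -0.66 ± 0.094, adjusted p = 5.8e-04).

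The other negative members were smaller or less certain. The interaction was -0.96 ± 0.29, adjusted p = 0.049 for PCK2, mitochondrial phosphoenolpyruvate carboxykinase, -0.63 ± 0.17, adjusted p = 0.039 for TRIB3, a pseudokinase that feeds back on ATF4, -0.49 ± 0.14, adjusted p = 0.038 for PSPH, the phosphatase that ends serine synthesis, and -0.41 ± 0.088, adjusted p = 0.012 for XPOT, the tRNA exporter. PCK2 and PSPH were called in 3 of the 12 fits that left out 1 library and TRIB3 in 4, whereas ASNS, CHAC1, PSAT1, SLC7A11, and XPOT were called in all 12. XPOT was not called in the 4-group fit. ATF4 itself was at 157, 122, and 131 FPKM in the WT DMSO libraries, 82, 86.6, and 89.4 in WT CYC065, 175, 171, and 165 in T58A DMSO, and 106, 106, and 108 in T58A CYC065. ATF4 was higher in T58A under both treatments and fell by 0.48 on the log2 scale in WT and fell by 0.49 in T58A, an interaction of -0.01 ± 0.096 (adjusted p = 0.98), although with GC and length centring it was -0.40, adjusted p = 0.017. Targets of ATF4 that did not pass the test included PHGDH (-0.18), SESN2 (-0.28), DDIT3 (-0.33), and the transporters SLC7A5 (-0.25), SLC3A2 (-0.19), and SLC1A5 (0.01).

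**Figure D3:**
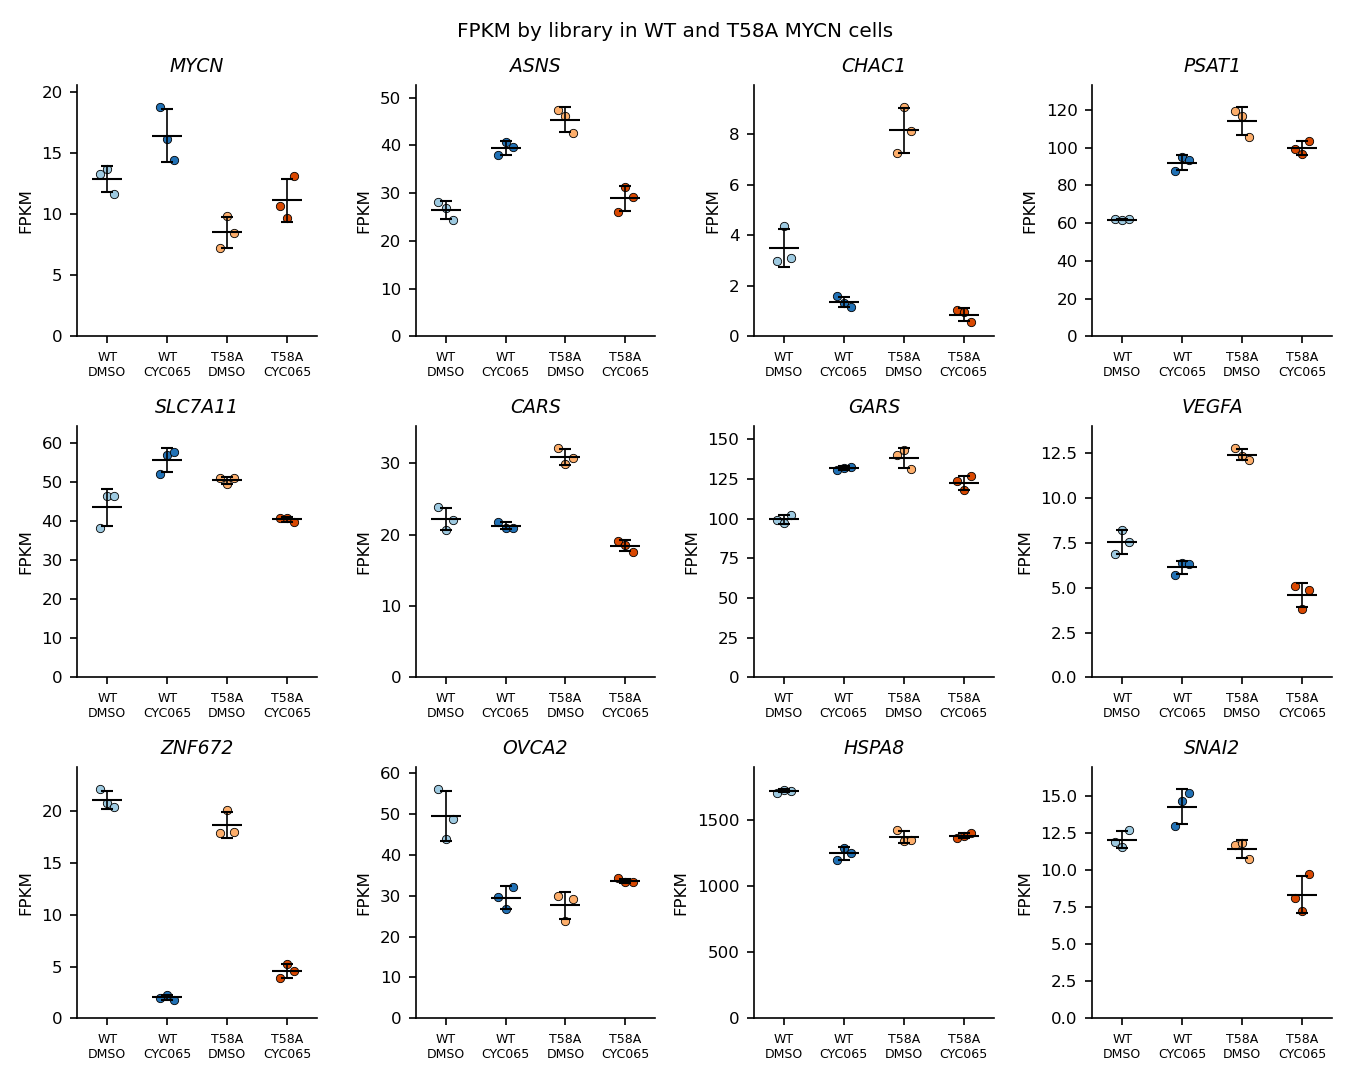
FPKM of 12 genes in each library (points) of WT DMSO, WT CYC065, T58A DMSO, and T58A CYC065, with the mean and SD of 3 libraries. In FPKM as deposited, ASNS, PSAT1, GARS, and SLC7A11 were higher with CYC065 in WT and lower with CYC065 in T58A, and CHAC1 and VEGFA were higher in T58A than in WT in DMSO and lower with CYC065.

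Aminoacyl-tRNA synthetases load tRNAs with their amino acids. Of the 20 cytosolic synthetase genes, 9 had a negative interaction and 2 a positive one (RARS and FARSA), with a list median of -0.19, where 2.51% and 2.97% of all tested genes were negative and positive. On the S62A background 4 were negative and 0 positive (median -0.15). The negative count was 7 to 10 when 1 library was left out, 8 with GC and length centring, 3 in the 4-group fit, and 0 with spike-in scaling. CARS, the cysteinyl-tRNA synthetase, was at 23.8, 20.7, and 22 FPKM in the WT DMSO libraries, 21.8, 21, and 20.9 in WT CYC065, 32.1, 29.9, and 30.7 in T58A DMSO, and 19.2, 18.6, and 17.6 in T58A CYC065. The T58A libraries were above those of WT in DMSO and below them in CYC065. CARS had a response of 0.12 (test not passed) on the log2 scale in WT and fell by 0.56 in T58A (interaction -0.67 ± 0.090, adjusted p = 2.7e-04). GARS, the glycyl-tRNA synthetase, was at 99, 97.2, and 103 FPKM in the WT DMSO libraries, 131, 132, and 133 in WT CYC065, 140.2, 143, and 131 in T58A DMSO, and 124, 118, and 127 in T58A CYC065. GARS rose by 0.58 on the log2 scale in WT and had a response of 0.02 (test not passed) in T58A, an interaction of -0.57 ± 0.053, adjusted p = 1.3e-06. Between these and IARS, at -0.26 ± 0.060, lay MARS (-0.44 ± 0.087), EPRS (-0.42 ± 0.079), NARS (-0.41 ± 0.068), LARS (-0.38 ± 0.065), WARS (-0.31 ± 0.075), and YARS (-0.31 ± 0.085). RARS, the arginyl-tRNA synthetase, went the other way, from 107, 112, and 116 FPKM in WT DMSO and 70.5, 69.8, and 64 in T58A DMSO to 90.2, 95, and 95.9 and 80.8, 75.7, and 69.2 with CYC065 (interaction 0.40 ± 0.082, adjusted p = 0.0082). FARSA was at 0.49 ± 0.14, adjusted p = 0.040 but was not called with GC and length centring (0.17, adjusted p = 0.26), and its partner subunit FARSB was at 0.14, which did not pass the test. MTHFD2, the mitochondrial one-carbon enzyme and another ATF4 target, had an interaction of -0.31 ± 0.071, adjusted p = 0.017, and this was not called with GC and length centring.

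**Figure D4:**
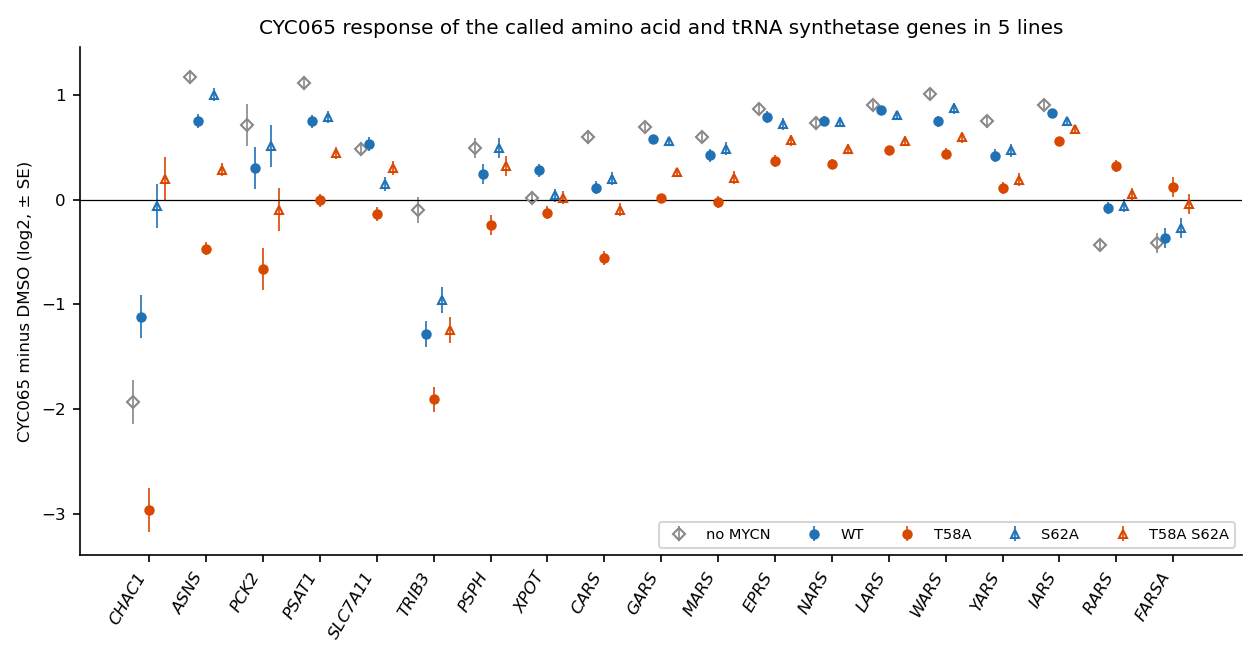
CYC065 response (log2, ± SE from the fit) of the called amino acid and tRNA synthetase genes in the parental SH-EP cells and the 4 MYCN lines. For most genes with a negative interaction, T58A (filled orange) is the lowest of the 5 lines, and T58A S62A lies below S62A for ASNS (-0.72), PSAT1 (-0.34), and GARS (-0.29) but not for CHAC1 (0.26) or SLC7A11 (0.16).

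Between the T58A S62A and S62A lines (the S62A background), 327 genes (2.83%) were called, 156 positive (1.35%) and 171 negative (1.48%). The authors reported that CYC065 lowered MYCN occupancy globally in the T58A S62A line and not in the other mutant lines. Of the 344 genes positive between T58A and WT, 223 (64.8%) were also above 0 on the S62A background, where 44.1% of all tested genes were, and 27 were called there in the same direction and 4 in the opposite. Of the 290 negative genes, 226 (77.9%) were below 0, where 55.9% of all genes were, and 41 were called in the same direction and 2 in the opposite. The shared calls made up 7.85% of the positive and 14.1% of the negative genes, and 17.3% and 24% of the corresponding lists on the S62A background. Both interactions used the same estimate of spread for each gene, so these lists are not fully independent. The difference between the 2 interactions passed the test for 68 genes (0.587%). ASNS was negative on both backgrounds (S62A background -0.72, adjusted p = 1.2e-04), as were PSAT1 (-0.34, adjusted p = 0.027) and GARS (-0.29, adjusted p = 0.0030). CHAC1 and SLC7A11 were not called on the S62A background (0.26, adjusted p = 0.73, and 0.16, adjusted p = 0.44), and their interactions differed between the backgrounds (difference -2.11 ± 0.42, adjusted p = 0.024 for CHAC1, and -0.82 ± 0.13, adjusted p = 0.0058 for SLC7A11).

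The genes called on both backgrounds with the largest shared difference were, among the positive ones, the histone gene HIST1H3H (1.31, and 1.48 on the S62A background), the uncharacterised LOC100129434 (1.13 and 1.31), PANK1, a kinase of coenzyme A synthesis (0.88 and 0.80), the membrane ligand EFNB1 (0.78 and 0.91), and NOCT, a circadian phosphatase (0.73 and 0.75). With GC and length centring HIST1H3H, EFNB1, and NOCT were not called and LOC100129434 has no value, and HIST1H3H was called in 5 of the 12 fits that left out 1 library. NOCT was at 8.98, 8.46, and 8.74 FPKM in the WT DMSO libraries, 13, 9.89, and 11.6 in WT CYC065, 10.1, 8.93, and 10.7 in T58A DMSO, and 20.8, 22.7, and 20.8 in T58A CYC065. The lines overlapped in DMSO and did not with CYC065, where T58A was higher. Among the negative ones were ZNF181 (-1.16 and -1.10), the nuclear RNA NEAT1, which scaffolds paraspeckles (-0.80 and -0.85), ASNS (-1.22 and -0.72), the mesenchymal repressor SNAI2 (-0.69 and -0.89), and URB2, a nucleolar ribosome assembly factor (-0.67 and -0.94). Of these, SNAI2 and NEAT1 were called in 7 and ZNF181 in 8 of the 12 fits that left out 1 library. NEAT1 was at 17.5, 27.1, and 23.2 FPKM in the WT DMSO libraries, 48.7, 69.9, and 66.5 in WT CYC065, 31.3, 29.6, and 38.4 in T58A DMSO, and 53.1, 48.4, and 52.8 in T58A CYC065. It rose in both lines, from a higher DMSO level in T58A to treated levels that overlapped between the lines.

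Of the 12 genes with the largest positive interactions (mean of at least 5 FPKM and no 0 in the 12 libraries), 9 fell in WT, and 7 of these fell less in T58A. ZNF672, a zinc finger gene (chr1:249132409-249143716, plus strand), was at 22.1, 20.8, and 20.4 FPKM in the WT DMSO libraries, 2.0, 2.29, and 1.75 in WT CYC065, 17.9, 20.2, and 18 in T58A DMSO, and 3.89, 5.25, and 4.6 in T58A CYC065. All treated T58A libraries were above all treated WT libraries, and ZNF672 fell by 3.16 on the log2 scale in WT and fell by 1.83 in T58A (interaction 1.33 ± 0.21, adjusted p = 0.0022). KEAP1, the adaptor that targets NRF2 for degradation, was at 52.4, 43.3, and 44.3 FPKM in the WT DMSO libraries, 8.64, 9.31, and 8.39 in WT CYC065, 43.1, 44.9, and 44.4 in T58A DMSO, and 12.3, 16.4, and 15.9 in T58A CYC065. KEAP1 fell by 2.22 on the log2 scale in WT and fell by 1.39 in T58A, an interaction of 0.82 ± 0.14, adjusted p = 0.0031. The same form, a fall in both lines that was smaller in T58A, was seen for the ceramide phosphate carrier CPTP (1.14 ± 0.31, adjusted p = 0.036), THAP7 (0.96 ± 0.28, adjusted p = 0.047), the INO80 chromatin remodeller subunit TFPT (1.03 ± 0.24, adjusted p = 0.015), the proline synthesis enzyme PYCRL (0.90 ± 0.17, adjusted p = 0.0052), and FAM131A (0.86 ± 0.24, adjusted p = 0.042). SELO, a mitochondrial pseudokinase, fell by 0.48 on the log2 scale in WT and rose by 0.36 in T58A (0.84 ± 0.21, adjusted p = 0.023). CPTP, THAP7, and FAM131A were called in 4 of the 12 fits that left out 1 library and not with GC and length centring. OVCA2, a serine hydrolase gene, was at 56, 43.9, and 48.8 FPKM in the WT DMSO libraries, 29.8, 26.7, and 32.1 in WT CYC065, 29.9, 23.8, and 29.1 in T58A DMSO, and 34.2, 33.3, and 33.3 in T58A CYC065. The T58A libraries were below those of WT in DMSO and above them with CYC065, and OVCA2 fell by 0.56 on the log2 scale in WT and rose by 0.47 in T58A (1.04 ± 0.17, adjusted p = 0.0022), but all of its exonic bases are also exons of DPH1 on the same strand, so that the reads of both cannot be told apart with certainty. TAF3, a subunit of the basal factor TFIID, had a response of 0.14 (test not passed) on the log2 scale in WT and rose by 1.11 in T58A (0.97 ± 0.19, adjusted p = 0.0057), and COX14, an assembly factor of cytochrome oxidase, rose by 0.38 on the log2 scale in WT and rose by 1.22 in T58A (0.84 ± 0.16, adjusted p = 0.0050). COX14 was not called with GC and length centring (0.88 ± 0.36, adjusted p = 0.17), where its SE was larger. HIST1H3H, at 1.31 ± 0.37, adjusted p = 0.040, was under 4 FPKM in all DMSO libraries.

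Of the 12 largest negative interactions by the same rule, that of VEGFA, the angiogenic growth factor and an ATF4 and hypoxia target (chr6:43737921-43754224, plus strand), followed ASNS and MED7 in size. VEGFA was at 6.9, 8.22, and 7.54 FPKM in the WT DMSO libraries, 5.73, 6.39, and 6.33 in WT CYC065, 12.8, 12.3, and 12.2 in T58A DMSO, and 5.1, 3.82, and 4.86 in T58A CYC065. It was higher in T58A than in WT in DMSO and lower with CYC065, without overlap. VEGFA had a response of -0.11 (test not passed) on the log2 scale in WT and fell by 1.24 in T58A (interaction -1.13 ± 0.17, adjusted p = 0.0012), and it was also negative on the S62A background (-0.67, adjusted p = 0.032). MED7, a Mediator subunit, was at -1.19 ± 0.35, adjusted p = 0.045 but was called in only 1 of the 12 fits that left out 1 library. Several of the remaining genes encode zinc finger proteins or other nuclear factors. The interaction was -0.92 ± 0.20, adjusted p = 0.011 for ZNF197, -0.91 ± 0.21, adjusted p = 0.016 for ZBTB6, -0.84 ± 0.23, adjusted p = 0.037 for ZMYM5, and -0.82 ± 0.19, adjusted p = 0.018 for ZNF92. It was -0.89 ± 0.16, adjusted p = 0.0041 for CBLL1, a component of the RNA m6A writer complex, and -0.84 ± 0.15, adjusted p = 0.0040 for TBCC, a tubulin folding cofactor. ADAM22, a neuronal adhesion receptor, rose in WT and less in T58A (-0.91 ± 0.19, adjusted p = 0.0081). ZBED6 was at -0.99 ± 0.17, adjusted p = 0.0039, but 95.7% of its exonic bases are shared with ZC3H11A on the same strand, and its interaction differed from that on the S62A background (-1.10 ± 0.25, adjusted p = 0.039). Over all 347 tested ZNF genes, 17 were negative and 5 positive (median -0.13), where 2.51% and 2.97% of all tested genes were. The counts were 16 and 7 with GC and length centring. The negative count was 6 without the first WT DMSO library, 7 without the third WT CYC065 or the first T58A DMSO library, 11 without the second WT CYC065 library, and 12 to 21 without any 1 of the other 8. ZNF224 (-1.56 ± 0.31, adjusted p = 0.0064) and ZNF649 (-1.32 ± 0.38, adjusted p = 0.043) were the most negative and ZNF672 and ZNF524 (1.33 ± 0.28, adjusted p = 0.011) the most positive, and ZNF224, ZNF524, and ZNF649 were at low levels, under 6 FPKM in the 12 libraries. ZNF649 was called in 3 and ZMYM5 in 4 of the 12 fits that left out 1 library, and ZMYM5 was not called with GC and length centring (-0.74, adjusted p = 0.083).

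No difference in response was called for CDK9 or CDK2, the kinases that CYC065 inhibits. CDK9 had an interaction of -0.10 ± 0.13 (adjusted p = 0.70), CDK2 of 0.17 ± 0.10 (adjusted p = 0.35), and HEXIM1, the P-TEFb inhibitor, of 0.04 ± 0.13 (adjusted p = 0.90), and a p that misses the threshold does not show that they were equal. MCL1, the short-lived survival factor, was at 96.4, 106, and 107 FPKM in the WT DMSO libraries, 117, 135, and 134 in WT CYC065, 109, 101, and 102 in T58A DMSO, and 127, 133, and 131 in T58A CYC065. Relative to the median gene MCL1 rose by 0.50 on the log2 scale in WT and rose by 0.51 in T58A, and the interaction was 0.01 ± 0.081 (adjusted p = 0.97). Of 23 tested P-TEFb and elongation genes, 1 was positive and 2 negative, where 2.97% and 2.51% of all tested genes were. Without the first WT DMSO or the third WT CYC065 library, 0 of the 23 were called. CCNT1, the cyclin partner of CDK9, was at 10.2, 13.6, and 13.9 FPKM in the WT DMSO libraries, 26.7, 27.6, and 30.8 in WT CYC065, 12.5, 12.7, and 13.7 in T58A DMSO, and 19.6, 20.7, and 23 in T58A CYC065. CCNT1 rose by 1.36 on the log2 scale in WT and rose by 0.88 in T58A (-0.48 ± 0.12, adjusted p = 0.026), and the treated T58A libraries were all below the treated WT libraries. AFF4, the scaffold of the super elongation complex, was at -0.39 ± 0.11, adjusted p = 0.036, and NELFA, a subunit of the pausing factor NELF, at 0.61 ± 0.15, adjusted p = 0.023. AFF4 and NELFA went the opposite way on the S62A background (0.32 and -0.44), and the difference between the backgrounds passed the test for both (adjusted p = 0.027 each). None of the 3 was called with GC and length centring. Of 14 BCL2 family genes and 11 genes of the MYC, MAX, and MXD network, 0 were called. An unadjusted limma p under 0.05, which 2616 of all 11575 tested genes had, was seen for some of them. These were BCL2L1 (0.41), BAX (0.30), BBC3 (0.75), and BNIP3L (-0.43) of the former and MXD1 (0.61), MXD3 (0.67), and MLXIP (0.36) of the latter.

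Among 25 tested p53 targets, 3 were positive and 1 negative, where 2.97% and 2.51% of all tested genes were, and with GC and length centring 4 and 1. When 1 library was left out, 2 or 3 were positive and 1 negative, or 2 negative without the second T58A DMSO library. MDM2, the ubiquitin ligase that degrades p53, was at 13.8, 14.1, and 14.4 FPKM in the WT DMSO libraries, 30.3, 32.9, and 36 in WT CYC065, 15.8, 14.9, and 14.7 in T58A DMSO, and 21.3, 23.3, and 24.1 in T58A CYC065. The lines were close in DMSO and apart with CYC065, where T58A was lower. MDM2 rose by 1.40 on the log2 scale in WT and rose by 0.78 in T58A (interaction -0.62 ± 0.12, adjusted p = 0.0074). PPM1D, the phosphatase that ends the p53 response, was at 6.28, 6.46, and 6.77 FPKM in the WT DMSO libraries, 14.4, 14.7, and 15.2 in WT CYC065, 6.53, 6.41, and 5.83 in T58A DMSO, and 22.5, 21.2, and 23.6 in T58A CYC065, so that here T58A was higher with CYC065 (0.66 ± 0.15, adjusted p = 0.012). PLK2 (0.31 ± 0.062, adjusted p = 0.0069) and the stress cytokine GDF15 (0.52 ± 0.14, adjusted p = 0.035) rose in both lines and more in T58A. Both were lower in T58A in DMSO, and the treated levels of GDF15 were 313, 278, and 297 FPKM in WT and 232, 240.1, and 253 in T58A. PLK2 and GDF15 were positive on the S62A background too (0.50, adjusted p = 8.0e-05, and 0.89, adjusted p = 7.6e-04). With GC and length centring GDF15 was not called (0.25, adjusted p = 0.11).

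Immediate early genes are switched on within minutes of growth factor signals, and their median response to CYC065 was 1.32 in WT and 1.30 in T58A. Of 24 tested, 2 were positive and 2 negative, where 2.97% and 2.51% of all tested genes were. With GC and length centring 1 was positive and 5 were negative (median -0.21, beside -0.03 as reported). The positive count was 2 without the third WT DMSO, the first WT CYC065, or the first T58A CYC065 library, 1 without the second T58A DMSO library, and 0 without any 1 of the other 8, and the negative count was 1 without the third T58A DMSO library and 2 or 3 without any other. FOSB, an AP-1 subunit, was at 3.17, 3.34, and 3.15 FPKM in the WT DMSO libraries, 17.8, 17.8, and 18.8 in WT CYC065, 3.6, 3.13, and 5.21 in T58A DMSO, and 9.07, 12.9, and 12.8 in T58A CYC065. FOSB rose by 2.63 on the log2 scale in WT and rose by 1.72 in T58A (-0.92 ± 0.22, adjusted p = 0.022). KLF10 rose by 1.74 on the log2 scale in WT and rose by 1.16 in T58A (-0.58 ± 0.11, adjusted p = 0.0041), and DUSP6, the phosphatase that feeds back on ERK, rose by 2.59 on the log2 scale in WT and rose by 2.08 in T58A (-0.51 ± 0.11, adjusted p = 0.010). IER2 (0.39 ± 0.11, adjusted p = 0.034) and SRF, the serum response factor (0.41 ± 0.12, adjusted p = 0.043), were positive, but IER2 was called in 3 and SRF in 4 of the 12 fits that left out 1 library, and SRF was not called with GC and length centring (0.28, adjusted p = 0.14). Of 21 NF-kB targets only NFKB2 was called (0.58 ± 0.17, adjusted p = 0.049). Of 21 YAP and TEAD targets, 2 were positive, GADD45A (0.39 ± 0.11, adjusted p = 0.044) and AXL (0.19 ± 0.057, adjusted p = 0.047). AMOTL2 was negative (-0.39 ± 0.084, adjusted p = 0.011). With GC and length centring 0 YAP and TEAD targets were positive, so GADD45A and AXL lost their calls. When 1 library was left out, the positive counts were 0 to 1 for NF-kB and 0 to 3 for YAP and TEAD targets.

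Heat shock proteins fold other proteins. Of 28 tested, 3 were positive and 0 negative, where 2.97% and 2.51% of all tested genes were. With GC and length centring the counts were 2 and 0, BAG3 being lost. HSPA8, the constitutive HSC70 chaperone (chr11:122928197-122933938, minus strand), was among the most abundant transcripts, at 1708, 1731, and 1724 FPKM in the WT DMSO libraries, 1197, 1292, and 1254 in WT CYC065, 1429, 1346, and 1348 in T58A DMSO, and 1368, 1379.6, and 1401 in T58A CYC065. It was lower in T58A than in WT in DMSO and higher with CYC065. HSPA8 fell by 0.29 on the log2 scale in WT and rose by 0.20 in T58A, an interaction of 0.48 ± 0.054, adjusted p = 2.1e-05. On the S62A background it was negative (-0.20, adjusted p = 0.045), and the difference between the backgrounds was 0.68 ± 0.077, adjusted p = 7.1e-05. BAG3, a cochaperone, was at 0.45 ± 0.10, adjusted p = 0.013, and the J protein DNAJA2 at 0.38 ± 0.11, adjusted p = 0.043, with DNAJA2 called in 2 of the 12 fits that left out 1 library.

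Genes of ribosome production, mitochondria, and the proteasome leaned towards a positive interaction, but the number called moved with GC and length centring and with single libraries. When 1 library was left out, list medians were 0.17 to 0.29 (mitochondrial ribosomal), 0.15 to 0.29 (respiratory chain), 0.12 to 0.20 (proteasome), and 0.12 to 0.25 (cytosolic ribosomal). With GC and length centring they were lower than as reported but above 0, at 0.16, 0.16, 0.14, and 0.09 in the same order. Over all tested genes, 2.97% were positive and 2.51% negative, and the median was 0.04. Of 77 mitochondrial ribosomal protein genes, 9 were positive and 0 negative (median 0.24, with 68 of 77 above 0). The count was 6 with GC and length centring, 1 without the first WT DMSO library, and 21 without the third. It was 3 without the second or the third WT CYC065 library, 4 or 5 without the first or the third T58A DMSO library or the second or the third T58A CYC065 library, and 6 to 10 without any 1 of the other 4. MRPS26 was at 121, 93.9, and 89.1 FPKM in the WT DMSO libraries, 50.3, 44.2, and 42.7 in WT CYC065, 77.8, 88.7, and 80.9 in T58A DMSO, and 54.9, 63, and 59.6 in T58A CYC065 and fell by 0.96 on the log2 scale in WT and fell by 0.29 in T58A (interaction 0.67 ± 0.16, adjusted p = 0.018). MRPL12 (0.57 ± 0.16, adjusted p = 0.037; 69.5% of its exonic bases also lie in another gene model on the same strand), MRPS12 (0.52 ± 0.15, adjusted p = 0.040), and MRPL20 (0.46 ± 0.11, adjusted p = 0.018) followed. Of 76 respiratory chain genes, 7 were positive and 0 negative (median 0.22), led by NDUFS8 (0.44 ± 0.12, adjusted p = 0.041), NDUFB10 (0.39 ± 0.10, adjusted p = 0.034), UQCR10 (0.38 ± 0.11, adjusted p = 0.049), and COX5B (0.37 ± 0.091, adjusted p = 0.022). With GC and length centring the count was 0, and it was 0 without the first WT DMSO library and 18 without the third. It was 2 to 4 without the second WT DMSO library, the second or the third WT CYC065 library, the first or the third T58A DMSO library, or the second T58A CYC065 library, and 5 to 8 without any 1 of the other 4. COX5B differed from its value on the S62A background (0.70 ± 0.13, adjusted p = 0.014). With GC and length centring, UQCR10 (0.57 ± 0.32) and COX5B (0.42 ± 0.31) were no smaller but had larger SEs. NDUFS8 (0.14 ± 0.11) and NDUFB10 (0.090 ± 0.094) became smaller. Of 37 proteasome genes, 4 were positive (PSMB6, PSMB5, PSMC3, and PSMD13, from 0.26 to 0.37), and 1 was with GC and length centring. The count was 0 without the first WT DMSO library or the second or the third WT CYC065 library, 11 without the third WT DMSO library, 1 or 2 without the second WT DMSO, the first or the third T58A DMSO, or the third T58A CYC065 library, and 3 or 4 without any 1 of the other 4. Of 79 cytosolic ribosomal protein genes (median 0.20, with 75 of 79 above 0), 2 were positive and 0 negative, close to the share over all tested genes. They were RPS21 (0.44 ± 0.10, adjusted p = 0.017) and RPLP2 (0.38 ± 0.10, adjusted p = 0.040). The positive count was 0 with GC and length centring and 0 to 16 when 1 library was left out. On the S62A background the medians of these 4 lists were below 0.

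Ribosome biogenesis genes, of which 52 were tested, had 6 positive and 2 negative members (median 0.15), where 2.97% and 2.51% of all tested genes were, and 3 and 1 with GC and length centring (median 0.06). The positive count was 1 without the first WT DMSO library, 2 or 3 without the second WT DMSO, the third WT CYC065, the first or the third T58A DMSO, or the first T58A CYC065 library, and 4 to 8 without any 1 of the other 6, and the negative count was 1 to 3. RRP1B, a nucleolar processing factor, was at 35.4, 37.5, and 36.4 FPKM in the WT DMSO libraries, 20.3, 19.2, and 19.9 in WT CYC065, 38.2, 36.2, and 41 in T58A DMSO, and 29.2, 28.8, and 28.8 in T58A CYC065. The DMSO libraries of T58A overlapped with those of WT and the treated ones were all higher. RRP1B fell by 0.70 on the log2 scale in WT and fell by 0.22 in T58A (0.47 ± 0.073, adjusted p = 0.0014), and it was positive on the S62A background (0.38, adjusted p = 0.0045). URB2 was at 28.3, 28.6, and 30.02 FPKM in the WT DMSO libraries, 17.2, 19.1, and 19.7 in WT CYC065, 28.6, 25.6, and 27.2 in T58A DMSO, and 9.15, 12.2, and 11.4 in T58A CYC065. It fell by 0.46 on the log2 scale in WT and fell by 1.13 in T58A (-0.67 ± 0.11, adjusted p = 0.0023). GRWD1, a ribosome assembly chaperone, was at 0.68 ± 0.16, adjusted p = 0.020 and POLR1B, the second largest subunit of RNA polymerase I, at -0.45 ± 0.12, adjusted p = 0.029, and neither was called with GC and length centring. Among genes of nucleotide, polyamine, and one-carbon synthesis, ADSL (0.32 ± 0.088, adjusted p = 0.037) and CTPS1 (0.29 ± 0.083, adjusted p = 0.043) were positive.

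DNA replication genes had 9 positive and 0 negative members of 49 tested (median 0.19), where 2.97% and 2.51% of all tested genes were positive and negative. The count was 4 with GC and length centring, 0 without the first WT DMSO library, and 12 without the third. It was 1 without the third WT CYC065 library, 4 without the second WT DMSO or WT CYC065 library, the first or the third T58A DMSO library, or the second T58A CYC065 library, and 6 or 7 without any 1 of the other 4. CLSPN, which relays replication stress to CHK1, was at 11.5, 10.6, and 10.3 FPKM in the WT DMSO libraries, 4.39, 4.43, and 4.9 in WT CYC065, 8.13, 5.94, and 6.28 in T58A DMSO, and 4.73, 4.15, and 4.44 in T58A CYC065. It was lower in T58A in DMSO and the treated libraries of the lines overlapped. CLSPN fell by 1.04 on the log2 scale in WT and fell by 0.40 in T58A (0.64 ± 0.14, adjusted p = 0.015). The origin factor ORC1 (0.53 ± 0.13, adjusted p = 0.022), the primase partner POLA2 (0.43 ± 0.11, adjusted p = 0.022), and GINS2 of the replicative helicase (0.43 ± 0.12, adjusted p = 0.043) were positive as well. Of 45 mitotic genes, 2 were positive and 6 negative, and 4 were negative with GC and length centring. The negative count was 0 without the first WT DMSO, the second or the third WT CYC065, or the first T58A DMSO library, 1 or 2 without the second WT DMSO library, the other T58A DMSO libraries, or the second or the third T58A CYC065 library, and 4 to 8 without any 1 of the other 3. AURKA, the centrosomal kinase, was at 112, 111, and 111 FPKM in the WT DMSO libraries, 16.7, 18.9, and 19 in WT CYC065, 81.3, 76.3, and 80.9 in T58A DMSO, and 16.3, 17.1, and 19 in T58A CYC065, so that lines that differed in DMSO overlapped with CYC065 (0.44 ± 0.11, adjusted p = 0.022). The spindle gene ASPM (-0.53 ± 0.14, adjusted p = 0.028), the kinetochore motor CENPE (-0.53 ± 0.15, adjusted p = 0.040), and DLGAP5 (-0.37 ± 0.10, adjusted p = 0.036) were negative, and ASPM and CENPE were called in 5 and DLGAP5 in 2 of the 12 fits that left out 1 library. CDK6, which phosphorylates RB in G1, was at 23.3, 25.6, and 25.9 FPKM in the WT DMSO libraries, 50.9, 46.1, and 44.8 in WT CYC065, 47.6, 43.5, and 46.6 in T58A DMSO, and 67.8, 59.2, and 64.9 in T58A CYC065. T58A was above WT under both treatments. CDK6 rose by 1.09 on the log2 scale in WT and rose by 0.66 in T58A (-0.43 ± 0.097, adjusted p = 0.015), and on the S62A background it was positive (0.36, adjusted p = 0.043; difference -0.79 ± 0.14, adjusted p = 0.0090). CDK4 was at 0.33 ± 0.091, adjusted p = 0.039. Neither CDK6 (-0.25, adjusted p = 0.11) nor CDK4 (0.04, adjusted p = 0.86) was called with GC and length centring. Of 44 tested clustered histone genes, whose transcripts mostly lack poly(A) tails and are thus poorly captured here, HIST1H3H and HIST1H2BD (0.74 ± 0.20, adjusted p = 0.035) were positive (list median 0.55), and 0 were with GC and length centring or without the first WT DMSO, the first or the third T58A DMSO, or the third T58A CYC065 library. HIST1H2BD was negative on the S62A background (-0.95, adjusted p = 0.0097). With GC and length centring its interaction was 0.93 ± 0.29, no smaller than as reported but with a larger SE.

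Of 7 tested adrenergic TFs, HAND2 was negative, and of 19 mesenchymal TFs, SNAI2 was, with 3 negative in each list with GC and length centring. HAND2, a core adrenergic TF, was at 70.04, 65.6, and 60.03 FPKM in the WT DMSO libraries, 31, 28.1, and 29.5 in WT CYC065, 80.04, 89.3, and 84.1 in T58A DMSO, and 27.5, 26.1, and 26.5 in T58A CYC065. Its DMSO level was higher in T58A and its treated level lower, without overlap. HAND2 fell by 0.96 on the log2 scale in WT and fell by 1.47 in T58A (-0.51 ± 0.11, adjusted p = 0.011), and it was negative on the S62A background as well (-0.67, adjusted p = 9.7e-04). SNAI2 was at 11.9, 11.6, and 12.7 FPKM in the WT DMSO libraries, 12.9, 14.7, and 15.1 in WT CYC065, 11.7, 11.8, and 10.7 in T58A DMSO, and 8.08, 7.23, and 9.7 in T58A CYC065. It rose by 0.42 on the log2 scale in WT and fell by 0.27 in T58A (-0.69 ± 0.17, adjusted p = 0.024). Of 38 contractile and matrix genes, 3 were positive and 4 negative, and of 18 collagen genes 0 and 2, where 2.97% and 2.51% of all tested genes were. With GC and length centring, 0 contractile and matrix genes were positive and 5 negative. The positive count was 2 or 3 without the second or the third WT DMSO, the first WT CYC065, or the first T58A CYC065 library and 0 or 1 without any 1 of the other 8. The negative count was 1 or 2 without the first WT DMSO, the second WT CYC065, the first or the third T58A DMSO, or the first T58A CYC065 library and 3 to 6 without any 1 of the other 7. COL12A1 was at 11.1, 12.3, and 12.8 FPKM in the WT DMSO libraries, 22.7, 25, and 24 in WT CYC065, 20.5, 18.3, and 19.1 in T58A DMSO, and 26.6, 27.4, and 26.5 in T58A CYC065. It rose by 1.16 on the log2 scale in WT and rose by 0.66 in T58A (-0.50 ± 0.092, adjusted p = 0.0045) and was above WT in T58A under both treatments. FN1, fibronectin (-0.32 ± 0.080, adjusted p = 0.024), ACTA2, smooth muscle actin (-0.44 ± 0.12, adjusted p = 0.035), and COL4A1 (-0.28 ± 0.061, adjusted p = 0.013) were negative, although FN1 was not called with GC and length centring (-0.23, adjusted p = 0.11) and ACTA2 was called in 4 of the 12 fits that left out 1 library, and TPM2 (0.34 ± 0.085, adjusted p = 0.024) and LOXL2 (0.31 ± 0.091, adjusted p = 0.045) positive.

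**Figure D5:**
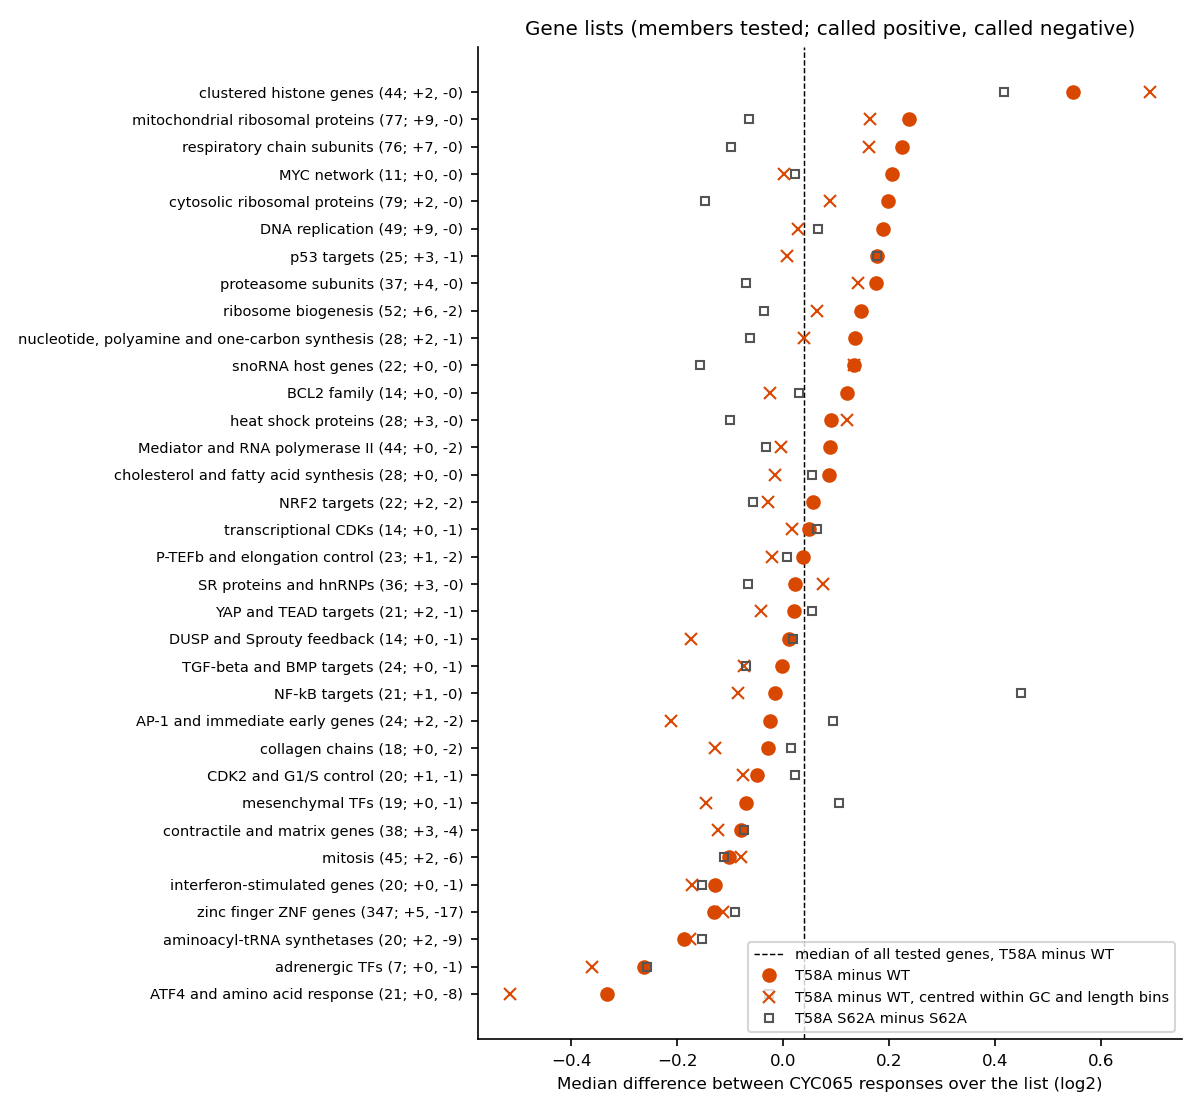
Median difference between CYC065 responses (log2) over the tested members of each list, as reported (circles), with GC and length centring (crosses), and on the S62A background (squares), with the median of all tested genes (0.04) as a broken line. The ATF4 list (-0.33) is lowest as reported and lower still with GC and length centring (-0.52), whereas the medians of the mitochondrial ribosomal (0.24) and respiratory chain (0.22) lists are below 0 on the S62A background.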

How the data were processed

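FPKM are fragments per kilobase of transcript and per 1e6 mapped reads. The authors added ERCC spike-ins (synthetic RNAs) by cell number to strand-specific libraries of poly(A) RNA, aligned the reads to hg19 with HISAT2, and computed FPKM with Cufflinks. The deposited FPKM carry no spike-in scaling, and the annotation behind them is not given in the sources used here. Replicate numbers in the column names differ from those of the labels, so libraries entered as unnumbered replicates and are called the first, the second, and the third by the column numbers 0, 1, and 2.

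Each of 30 libraries, as log2(FPKM + 0.1), was centred on the median of 11575 genes whose mean FPKM was 1 or more. Folds of low genes are understated on this scale. Genes were tested with limma 3.58.1 (R 4.3.3, eBayes with trend) in 1 model over 10 groups, two-sided, with Benjamini-Hochberg adjusted p under 0.05. Named genes were the 12 in each direction with the largest difference (mean of at least 5 FPKM and no 0 in the 12 libraries), up to 4 called members of each of 38 gene lists, 6 fixed genes, and the 5 in each direction with the largest difference shared with the S62A background, with a few list members chosen after their values were seen. The comparison and the lists were chosen with earlier results of these data known. Alternatives were other pseudocounts, filters and scalings, a 1.5-fold minimum, a fit of the 4 groups alone, and leaving out each library. Centring within 20 bins of GC content and 20 of transcript length, the test between both interactions, and a block on the column number were chosen after seeing the data. Positions and transcript properties came from GENCODE 44 lifted to GRCh37, which matched 97.8% of tested genes. On simulated data, 70.8% of genes given a difference of -1 and 30.6% of those given -0.5 were called.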

Additional observations from a re-analysis of the deposited data

Results flagged for a closer look

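These results were listed because a test of the difference itself found that the CYC065 response differed between lines. The test is the limma interaction of the report, and each value in parentheses is the T58A response minus the WT response in log2 units. It passed for 634 genes between T58A and WT and for 327 between T58A S62A and S62A, and the difference between both interactions passed for 68. With 3 libraries per group, no single library was tested as an outlier.

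In amino acid supply, the ATF4 response and tRNA charging, the genes were ASNS (-1.22), CHAC1 (-1.85), PCK2 (-0.96), PSAT1 (-0.75), SLC7A11 (-0.66), TRIB3 (-0.63), PSPH (-0.49), XPOT (-0.41), MTHFD2 (-0.31), CARS (-0.67), GARS (-0.57), and MARS (-0.44) on the negative side and FARSA (0.49), RARS (0.40), and PYCRL (0.90) on the positive side.

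In transcription and chromatin they were CCNT1 (-0.48), AFF4 (-0.39), MED7 (-1.19), ZBED6 (-0.99), ZNF197 (-0.92), ZBTB6 (-0.91), CBLL1 (-0.89), ZMYM5 (-0.84), ZNF92 (-0.82), ZNF224 (-1.56), ZNF649 (-1.32), ZNF181 (-1.16), and NEAT1 (-0.80), all negative, and NELFA (0.61), TAF3 (0.97), TFPT (1.03), THAP7 (0.96), ZNF672 (1.33), ZNF524 (1.33), HIST1H3H (1.31), and HIST1H2BD (0.74), all positive.

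In stress and signalling responses they were MDM2 (-0.62), FOSB (-0.92), KLF10 (-0.58), and DUSP6 (-0.51), which were negative, and PPM1D (0.66), GDF15 (0.52), PLK2 (0.31), SRF (0.41), IER2 (0.39), HSPA8 (0.48), BAG3 (0.45), DNAJA2 (0.38), and KEAP1 (0.82), which were positive.

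In ribosome production and mitochondria they were MRPS26 (0.67), MRPL12 (0.57), MRPS12 (0.52), MRPL20 (0.46), NDUFS8 (0.44), NDUFB10 (0.39), UQCR10 (0.38), COX5B (0.37), COX14 (0.84), GRWD1 (0.68), and RRP1B (0.47), with URB2 (-0.67) and POLR1B (-0.45) on the negative side. In replication and the cell cycle they were CLSPN (0.64), ORC1 (0.53), POLA2 (0.43), GINS2 (0.43), AURKA (0.44), and CDK4 (0.33), with ASPM (-0.53), CENPE (-0.53), DLGAP5 (-0.37), and CDK6 (-0.43) negative.

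In cell identity, matrix and other roles they were HAND2 (-0.51), SNAI2 (-0.69), ACTA2 (-0.44), COL12A1 (-0.50), FN1 (-0.32), VEGFA (-1.13), ADAM22 (-0.91), and TBCC (-0.84), which were negative, and CPTP (1.14), OVCA2 (1.04), FAM131A (0.86), SELO (0.84), PANK1 (0.88), EFNB1 (0.78), NOCT (0.73), and LOC100129434 (1.13), which were positive.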

How the results depend on the processing

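The numbers in the column names are not those of the labels, so they mark no known pairing, and deviations from the group means correlated above 0.1 in 1 of 18 pairs of libraries with the same number (median r of 0.0162) and in 1 of 36 other pairs. With the column number as a replicate block, a fit chosen after seeing the data, 589 genes were called, 562 of them among the 634 in the same direction, and the other counts stayed within 1.5 times. Beside 634 genes as reported, the interaction between T58A and WT was called for 394 genes with no filter on low values, 199 with a change of at least 1.5-fold, 60 when only the 4 groups were fitted, 5 with ERCC spike-in scaling, and 179 to 1094 when 1 library was left out. The counts were within 1.5 times for the remaining alternatives (pseudocounts, a minimum of 5 FPKM, no centring, and GC and length centring). Beside 327, the interaction on the S62A background was called for 129 genes with 1.5-fold, 95 when only its 4 groups were fitted, 2 with spike-in scaling, and 202 to 378 when 1 library was left out (202 without the first S62A DMSO library and 204 without the third T58A S62A CYC065 library). Its split was 156 positive and 171 negative as reported, and 169 and 133 without centring. Beside 2749, the DMSO difference was called for 994 genes with spike-in scaling, 941 of them higher, 550 with 1.5-fold, 1590 when only the 2 DMSO groups were fitted, and 2228 to 2574 when 1 library was left out. Both responses to CYC065 kept their counts within 1.5 times under all alternatives, including 8073 to 8244 genes in WT and 8207 to 8323 in T58A when 1 library was left out. The directions did not hold with spike-in scaling. There, 3362 of the 8501 WT genes and 3303 of the 8550 T58A genes were called in the same direction.

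Of 94 genes followed singly, 88 were called as reported. Of these 88, 68 lost their call when only the 4 groups were fitted, 32 with GC and length centring (ATF4, not among them, gained one), and 27 with no filter. With spike-in scaling 76 lost it and 10 turned positive without passing the test, at 0.0067 for CCNT1, 0.086 for AFF4, 0.079 for XPOT, 0.040 for MARS, 0.18 for MTHFD2, 0.11 for DLGAP5, 0.019 for POLR1B, 0.050 for CDK6, 0.043 for ACTA2, and 0.16 for FN1. That scaling raises the median interaction to 0.50, and the 4-group fit leaves 8 residual degrees of freedom. XPOT, KEAP1, HAND2, URB2, MARS, RARS, PLK2, KLF10, and DUSP6 were not called in that fit. They were called in all 12 fits leaving out 1 library. Why single libraries moved the counts was not tested. Read depth is unknown in absolute terms, so no counting interval can be given, and simulated differences of 0.5 were called for 28% of genes.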

Other observations

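Of 28 cholesterol and fatty acid synthesis genes and 22 snoRNA host genes, 0 were called by limma, although their medians of 0.09 and 0.13 lay above the 0.04 of all tested genes. At an unadjusted p under 0.05 there were 8 and 1, where 2616 of all 11575 tested genes were. Of 24 TGF-beta and BMP targets, ID4, an inhibitor of basic helix-loop-helix factors, was negative (-0.67 ± 0.17, adjusted p = 0.029). Of 22 NRF2 targets and regulators, 2 were positive and 2 negative, where 2.97% and 2.51% of all tested genes were. Here TALDO1 of the pentose phosphate pathway was positive (0.32 ± 0.088, adjusted p = 0.037) and the thioredoxin reductase TXNRD1 negative (-0.20 ± 0.058, adjusted p = 0.042), beside KEAP1 and SLC7A11 of the report. Of 36 genes of SR proteins and hnRNPs, SRSF9 (0.34 ± 0.096, adjusted p = 0.042), HNRNPAB (0.31 ± 0.079, adjusted p = 0.028), and HNRNPM (0.23 ± 0.068, adjusted p = 0.046) were positive, and 1 of the 36 was with GC and length centring. Of 44 Mediator and RNA polymerase II genes, the kinase CDK19 was negative (-0.48 ± 0.14, adjusted p = 0.046), as was MED7. Of the 14 transcriptional CDKs, CDK19 alone was called, and of 14 DUSP and Sprouty genes DUSP6 alone. Of the epithelial and the Schwann and melanocyte markers 1 gene each reached the level to be tested and was not called, and of the blood cell and endothelial markers 0 did.

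The parental SH-EP cells responded to CYC065 with a rise of 1.17 in ASNS, 1.12 in PSAT1, and 0.70 in GARS (log2), where WT rose by 0.75, 0.75, and 0.58 and T58A was at -0.47, -0.01, and 0.02. The S62A line rose by 1.00 in ASNS and the T58A S62A line by 0.29. CHAC1, which fell in the parental cells (-1.93), in WT (-1.12), and in T58A (-2.96), was at -0.06 in S62A and 0.20 in T58A S62A.

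Over 11325 genes of 1 fit, the Spearman rho of the interaction with transcript GC content was 0.328 between T58A and WT and 0.0104 between T58A S62A and S62A, and with length it was -0.270 and 0.138. Genes are not independent replicates, these are descriptions without a test, and whether they differ between the backgrounds was not tested.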
